A study of Homo sapiens with 6 samples.

Results

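Regions of the genome that held a called peak in every CUT&Tag library of the series were examined. They were selected on the presence of called peaks alone, with the authors' threshold: peaks of all 6 lists were merged wherever they shared at least 1 bp on the 22 numbered chromosomes, X and Y, and a merged region was kept when each list contributed at least 1 peak. This left 428 of 13626 merged regions (3.14%), while 7086, 3444, 1488, 941 and 239 regions held a peak in 1, 2, 3, 4 and 5 libraries. The libraries came from HepG2, an established human liver cancer line that the labels list under liver. No treatment or genetic change is given for any of the libraries. In CUT&Tag an antibody tethers a transposase that cuts and tags nearby DNA, and here the antibodies were against ENO1 (the glycolytic enzyme enolase 1), H4K12la (histone H4 lactylated at lysine 12) and HDAC1 (histone deacetylase 1). Each target had replicates 1 and 2, and no label ties these to separate cultures, so differences between them can be purely technical. On these chromosomes the ENO1 lists of replicates 1 and 2 had 1592 and 1189 peaks, those of H4K12la 5459 and 7568, and those of HDAC1 5727 and 4567, and the sequencing depth behind them is unknown. Of the liver marker genes examined, 0 of 13 had one of the 428 regions within 1 kb of an end, and neither did any of 8 markers of other cell types, which says nothing of expression. Only 8 of the 428 lay so close to an end of any of the 19866 protein-coding genes, so such counts of 0 are uninformative about the cell type.

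Histone lactylation and acetylation sit on nucleosomes of expressed genes, above all around their promoters, and HDAC1 removes acyl groups from histones as part of large complexes at such places. The centromeres of human chromosomes and the satellite repeats that flank them lie in long stretches without protein-coding genes. Not every long stretch holds a centromere, so the longest of a chromosome is no stand-in for one. Several multicopy gene families lie beside centromeric stretches or near chromosome ends. In satellite and multicopy sequence, reads from many near-identical copies can be placed on 1 copy of the reference. The gene table used here lists no repeats, so overlap with satellite DNA was not tested, and no control library was analysed here.

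Of the 428 regions, 3 contained the whole of a RefSeq promoter window (the 250 bases before an annotated start, GRCh38), and these are printed because they show the promoter sequence that lies wholly within such a region. Peaks of all 6 libraries reached the window at FAM27E4 and FAM230E, and peaks of 5 did at TAF11L3. All are on the plus strand of the assembly, TAF11L3 at chr5:17518117-17518366, FAM27E4 at chr9:61856455-61856704 and FAM230E at chr22:18733685-18733934. Capitals mark matches, on either strand, to GGGCGG (the GC box bound by SP1-type factors), CCAAT (bound by NF-Y) and the NRF1 palindrome (GCGCA followed directly by its reverse complement); TATAAA was also searched. In FAM27E4 the 2 matches adjoin.
TAF11L3: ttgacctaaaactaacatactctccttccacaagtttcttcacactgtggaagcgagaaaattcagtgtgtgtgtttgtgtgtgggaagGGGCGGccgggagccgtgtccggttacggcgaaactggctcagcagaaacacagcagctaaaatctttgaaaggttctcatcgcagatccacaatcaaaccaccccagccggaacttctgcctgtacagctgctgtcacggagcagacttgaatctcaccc
FAM27E4: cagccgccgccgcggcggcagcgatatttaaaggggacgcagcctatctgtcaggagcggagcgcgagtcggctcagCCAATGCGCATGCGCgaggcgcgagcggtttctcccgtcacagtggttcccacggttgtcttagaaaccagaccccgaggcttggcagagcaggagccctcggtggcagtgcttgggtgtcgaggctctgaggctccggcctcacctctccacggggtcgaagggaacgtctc
FAM230E: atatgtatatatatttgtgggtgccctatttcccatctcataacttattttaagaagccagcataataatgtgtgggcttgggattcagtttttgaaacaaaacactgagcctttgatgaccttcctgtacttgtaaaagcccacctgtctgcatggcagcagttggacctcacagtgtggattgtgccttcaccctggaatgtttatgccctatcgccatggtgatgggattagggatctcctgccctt
The 4 motifs were chosen after the sequences were seen and describe letters only. GGGCGG occurred in 42.6% of all 35116 promoter windows of the same length, CCAAT in 32.0%, the NRF1 palindrome in 1.03% and TATAAA in 10.7%. The FAM27E4 window had 65.6% G and C with 26 CG pairs, against a median of 58.0% and 11 pairs over all windows. The TAF11L3 window had 50.8% and 10 pairs, and the FAM230E window, with none of the motifs, 44.0% and 1 pair.

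These promoters differed in how close the peaks came to the start. At FAM27E4 the summit of the strongest peak lay 153 to 175 bp after the start in all 6 libraries, with fold enrichments of 9.59 and 9.04 in ENO1, 6.12 and 5.06 in H4K12la, and 8.57 and 9.35 in HDAC1 in replicates 1 and 2. Fold enrichment is the peak caller's own ratio of summit signal to background within a library, with no scaling between libraries, so it is ranked within a list and not compared in size between lists. At FAM230E, a long non-coding RNA gene of a multicopy family, the summits lay before the start, with 9.47 and 7.41 in ENO1, 8.22 and 7.16 in H4K12la, and 8.14 and 9.92 in HDAC1. At TAF11L3, a member of a tandem family related to the transcription factor subunit TAF11, the summits lay 273 to 626 bp before the start, and the HDAC1 replicate 2 peak did not reach the window. The TAF11L3 window had 10 other windows within 50 edits of it, at 85.2% to 100% identity, and 6 of them, at TAF11L4, TAF11L5, TAF11L6, TAF11L7, TAF11L8 and TAF11L10, were identical to it. None of these 10 windows held a peak in any of the 6 libraries. Reads from identical copies cannot be told apart, so the position of a peak within the TAF11L array is uncertain. FAM230E had 6 such windows at 80.8% to 87.6% identity, 3 of which held peaks, in 4 libraries at FAM230B, 1 at FAM230G and 3 at FAM230H, and FAM27E4 had none.

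The regions shared by all libraries lay mostly away from genes. Of the 428, 312 were more than 50 kb away from every protein-coding gene (72.9%, Wilson 95% interval 68.5 to 76.9), beside 21.5% of all merged regions. For each chromosome the longest stretch between 2 protein-coding genes was taken, leaving out those before its first and after its last gene. These longest gene-free stretches held 192 of the 428 (44.9%, 40.2 to 49.6), beside 10.1% of all merged regions. In regions with a peak in 5 libraries that share was 44.8%, so it was not particular to the 428. Another 53 overlapped a protein-coding gene (12.4%, 9.59 to 15.8), beside 59.1%. Only 8 lay within 1 kb of the end of a protein-coding gene (1.87%, 0.9501 to 3.64), beside 36.7%, and 0.935% did with 500 bp. Intervals cover counting error only, neighbouring regions are not independent, and no test was made of these shares. Counting genes of every kind, 97 regions (22.7%) overlapped a gene and 331 (77.3%) none. Of the 44 that overlapped only entries of other kinds, 19 touched a long non-coding RNA gene, 21 a pseudogene and 4 a transcribed pseudogene, with 2 regions counted under 2 kinds. The remaining 2 lay in IGK, the immunoglobulin kappa locus, at chr2:89827985-89829602 and chr2:89836143-89837299. The median distance to a protein-coding gene was 423 kb and to any gene 59.5 kb. With 1 region for each cluster, a choice made after seeing the data, 220 regions were left, of which 59.1% were far from genes and 19.5% overlapped one, beside 15.6% and 65.7% of 5250 merged regions reduced in the same way.

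**Figure D1:**
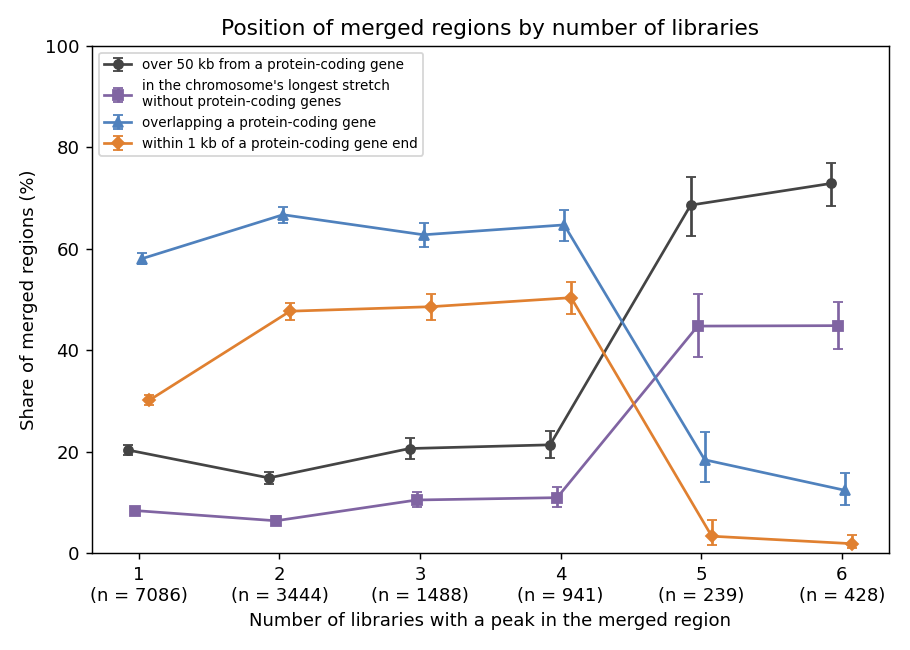
Share of merged regions (percent, points joined by lines, with Wilson 95% intervals as error bars) at each kind of place, by the number of libraries with a peak, from 1 to 6. Regions over 50 kb from genes make up 20.3%, 14.8%, 20.6% and 21.4% with 1 to 4 libraries and 68.6% and 72.9% with 5 and 6.

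The share of far regions did not grow step by step with the number of libraries. It was 20.3%, 14.8%, 20.6% and 21.4% in regions with a peak in 1, 2, 3 and 4 libraries, then 68.6% in regions with 5 and 72.9% in regions with all 6. A region with 5 or 6 libraries must hold an ENO1 peak, since only 4 libraries are not ENO1. The merged regions were therefore also divided by whether they held an ENO1 peak. With an ENO1 peak, 63.0% of the 532 regions seen in a single library were far from genes, as were 71.3% of 293, 71.9% of 288 and 70.6% of 204 regions with 2, 3 and 4 libraries. Without one, the shares were 16.9%, 9.58%, 8.33% and 7.73%. Gene-end shares over the same classes were 0.940% to 3.43% with an ENO1 peak and 32.5% to 63.4% without. The interval around the 72.9% of the 428 regions overlapped those of regions with an ENO1 peak in 2, 3, 4 and 5 libraries, and lay above that of the 532 regions seen in an ENO1 library alone (58.8 to 67.0). This division was chosen after seeing the data.

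The 239 regions that missed a single library show which list set the boundary. The missing list was ENO1 replicate 1 in 34 and replicate 2 in 56, H4K12la replicate 1 in 72 and replicate 2 in 67, and HDAC1 replicate 1 in 6 and replicate 2 in 4. The strongest of them by mean percentile of fold within the lists were 3 narrow regions at chr12:133264927-133265305, chr16:34085147-34085573 and chr10:10017-10424. The chromosome 12 region reached 17.8 for ENO1 replicate 1, 16.7 and 18.2 for H4K12la and 20.04 and 20.4 for HDAC1, and had no peak in ENO1 replicate 2. The chromosome 10 region missed the same library and the chromosome 16 region missed H4K12la replicate 2, so a strong fold in 5 lists did not bring a call in the other. Just inside the rule, the weakest library had a −log10 q of 2.55 at chr16:29302830-29303754 (ENO1 replicate 1), of 2.71 at chr22:49901627-49902838 within ALG12, a mannosyltransferase gene of N-glycan assembly (H4K12la replicate 1), and of 2.82 at chrY:10986726-10987992 (H4K12la replicate 1). All lists end at a q of 0.01. When each list was cut to its 1189 strongest peaks, 268 regions were left.

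Chromosome 10 held 55 of the regions, chromosome 1 held 50, chromosome 4 held 36, chromosome 5 held 35 and chromosome Y held 33, which was 22.3% of the 148 merged regions on Y. Chromosomes 13, 14 and 15 held 2 each, X 3 and chromosome 12 had 4. The longest gene-free stretch took 39 of the 55 on chromosome 10 (chr10:38150294-42574168), 31 of the 50 on chromosome 1 (chr1:121463130-143902385), 29 of the 35 on chromosome 5 (chr5:45696381-50396191) and 16 of the 27 on chromosome 17 (chr17:21704613-27294113). Chromosome 19 had 17 in its stretch, and chromosomes 16 and Y 14 each. On chromosomes 2, 4, 6, 13, 14, 15, 18, 21, 22 and X none lay in the longest stretch between genes. Any longer stretch before the first or after the last gene of a chromosome was not counted. On chromosome 22 the stretch taken was 1.31 Mb, yet the region at chr22:12175653-12177014 lay 3351 kb from OR11H1. Still, 23 of the 36 regions on chromosome 4 and 19 of the 21 on chromosome 21 were over 50 kb from protein-coding genes. Of all 428, 72 (16.8%) lay within 1 Mb of the outermost gene or peak of a chromosome, beside 5.06% of all merged regions. That outermost point comes from the gene table and these same lists, so it need not be the chromosome's end. A region that is itself outermost counts by definition. The region nearest the start of chromosome 1, chr1:10010-10569, reached 9.39 and 9.89 in ENO1, 11.8 and 12.3 in H4K12la, and 15.4 and 15.7 in HDAC1.

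**Figure D2:**
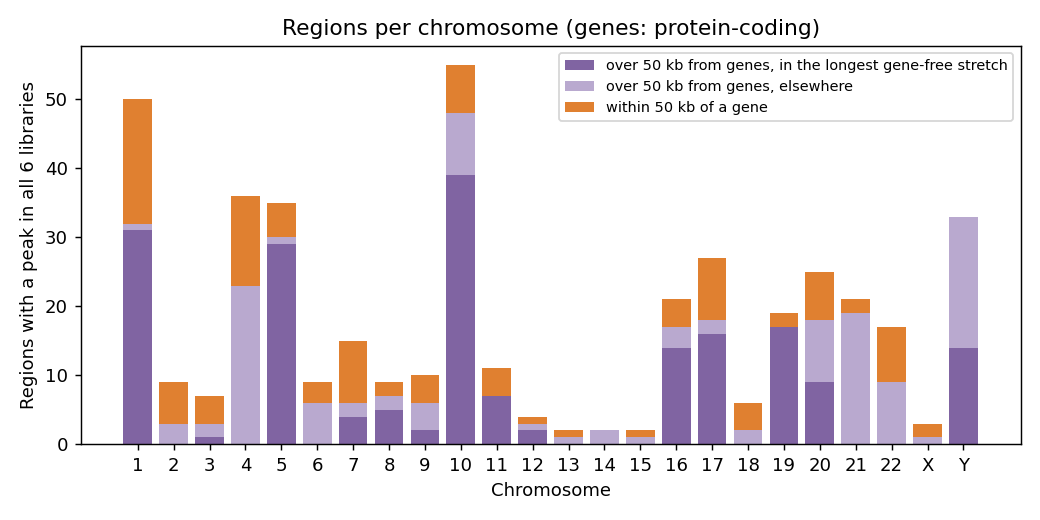
Number of the 428 regions on each chromosome (bars), divided by position relative to protein-coding genes. Classes are over 50 kb from them, inside or outside the longest stretch between them, and within 50 kb of one. Stretches beyond the outermost genes of a chromosome do not count as longest. Chromosomes 10 and 1 lead with 55 and 50, and chromosomes 2, 4, 6, 13, 14, 15, 18, 21, 22 and X have none in their longest stretch.

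Joined across gaps of up to 100 kb, the 428 regions formed 220 groups: 155 single regions, 34 pairs and 31 clusters of 3 or more that held 205 regions (47.9%). All merged regions, a denser set, reached 64.3% in the same way, so the 2 shares are not comparable. Joined across 1 Mb the share of the 428 was 73.1%. The 6 largest clusters held 79 regions (18.5%) and fell into strong and weak ones. A cluster at chr10:133667258-133787435, described with the DUX4 family, also had 10 regions and tied with the last of these 6. The strongest were on chromosome 10: 14 regions at chr10:40019568-40437226 with a median mean rank of 86.9, and 11 at chr10:40556230-40981551 with 88.8, where rank 1 is the highest fold of 428 and the mean is over the 6 libraries. The median fold in the former was 13.96 and 10.4 in ENO1, 10.9 and 11.6 in H4K12la, and 12.8 and 14.6 in HDAC1. Their nearest protein-coding genes were the zinc finger genes ZNF37A and ZNF33B, at 1869 and 1593 kb.

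The other large clusters ranked lower in every list. A cluster of 14 regions at chr5:49465451-49667338, 729 kb from EMB (embigin, a transmembrane glycoprotein), had a median mean rank of 182, and 10 regions at chr1:143184829-143264821 had one of 223. The cluster with the most regions, 17 within 177 kb at chrY:56674567-56851196, had mean ranks of 257 to 414. Its median folds were 4.57 and 4.20 in ENO1, 4.30 and 3.92 in H4K12la, and 4.02 and 4.61 in HDAC1. The nearest gene listed on Y is CDY1 at 31049 kb, but the table lists genes shared with X on X only, so distances near the ends of Y are overstated. The most compact, 13 regions within 63.7 kb at chr4:49091400-49155089, lay 29.3 kb from CWH43, a gene of lipid remodelling of membrane anchors. Its median folds were 5.01 and 4.06 in ENO1, 4.21 and 4.39 in H4K12la, and 4.69 and 4.57 in HDAC1. A single cluster could thus hold many regions and low folds, or, as on chromosome 10, many regions and high ones.

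Most of the regions were simple in shape. Of the 428, 393 (91.8%) had exactly 1 peak from each library, and the most complex had 13 peaks in all. Widths ran from 363 to 3819 bp with a median of 841 and quartiles of 644 and 1220 bp. Regions with 1 to 5 libraries had medians of 422, 672, 807, 915 and 663 bp, but a merged width can grow with the number of lists. Single peaks in the 428 regions had median widths of 626 and 660 bp in ENO1, 634 and 609 in H4K12la, and 713 and 701 in HDAC1. The other peaks of the same lists had 359 and 443, 528 and 540, and 485.5 and 419 bp. The narrowest regions lay in gene-free stretches of chromosomes 1 and 5: chr1:123798378-123798740 at 363 bp, chr5:49478922-49479292 at 371 bp and chr5:48274428-48274802 at 375 bp. The widest were chr1:2652185-2656003, inside TTC34, at 3819 bp, chr4:49107388-49110921 at 3534 bp and chr16:46398330-46401591 at 3262 bp. The narrowest 3 had mean ranks of 87.2, 108 and 109, and the widest 3 had 357, 366 and 364.

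Within a region the summits of the 6 libraries lay close together. The span from the leftmost to the rightmost summit of the strongest peaks had a median of 71.5 bp. It was within 100 bp in 254 regions (59.3%) and over 500 bp in 46 (10.7%), and it reached 2295 bp in the wide chromosome 4 region. In the 43 regions with the best mean ranks the median span was 27.0 bp, against 89.0 bp in the other 385. Those 43 included 36 far from genes (83.7%), 27 in a longest gene-free stretch (62.8%) and 1 in a gene body.

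Within every list the 428 regions held peaks of high fold, which is a description, since a region needed a called peak in each list to be chosen. They took 445 and 431 peaks of the ENO1 lists (27.95% and 36.2%), 441 and 437 of the H4K12la lists (8.08% and 5.77%) and 441 and 443 of the HDAC1 lists (7.70% and 9.70%). The strongest peak of a region had a median percentile within its list of 75.8 and 68.5 in ENO1, 94.3 and 95.7 in H4K12la, and 91.6 and 89.5 in HDAC1. Of the 100 peaks with the highest fold, 77 lay in these regions in ENO1 replicate 1, and 86 and 92 did in the H4K12la lists and 76 and 77 in the HDAC1 lists. In ENO1 replicate 2, where a tie makes 101, 85 did. Regions below the median of their list were nonetheless common, 107 and 141 in the ENO1 lists, 61 and 54 in the H4K12la lists, and 71 and 80 in the HDAC1 lists. Median folds were 7.91 and 7.08 in ENO1, 6.91 and 6.79 in H4K12la, and 7.84 and 8.08 in HDAC1, beside 5.35 and 5.46, 3.95 and 3.99, and 4.60 and 4.79 for the other peaks of the same lists.

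**Figure D3:**
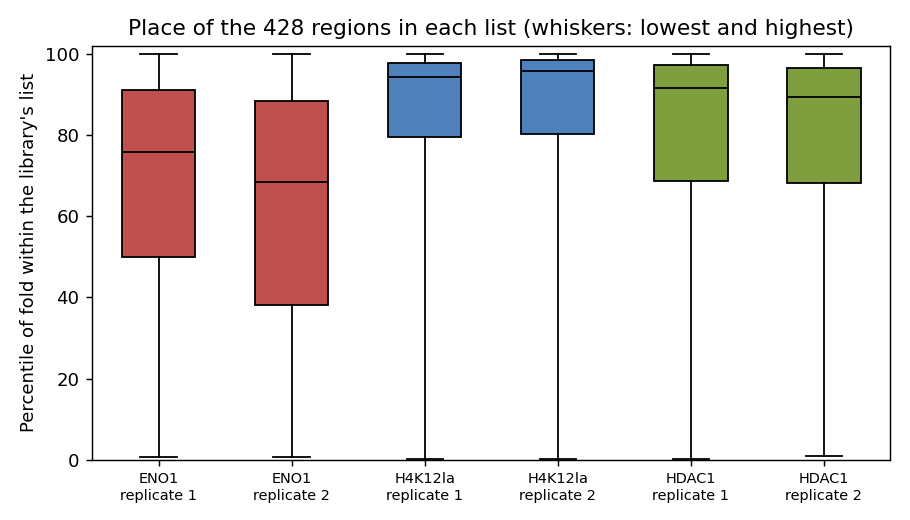
Percentile of each region's strongest peak by fold among all peaks of the same list, for the 6 libraries (box: quartiles with the median, whiskers: lowest and highest of 428 regions). Medians are 75.8 and 68.5 in the ENO1 lists and between 89.5 and 95.7 in the other 4.

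The 10 regions with the best mean rank were high in all libraries. The top region, chr17:25920036-25920494, 1374 kb from WSB1 (a ubiquitin ligase adaptor), ranked 1 in 5 lists and 2 in ENO1 replicate 2. Next came chr3:93470362-93470870, with ranks of 3 and 3 in ENO1, 2 and 2 in H4K12la, and 2 and 3 in HDAC1, and with the best −log10 q of all regions in every list, at least 1627. The region next in order, chr17:22521207-22521882, lay within 1 kb of a pseudogene that resembles a mitochondrial gene. The fourth, chr17:26603462-26604540, reached 28.6 and 22.1 in ENO1, 23.8 and 25.9 in H4K12la, and 26.2 and 29.3 in HDAC1. The fifth, chr21:10692373-10693111, 86.7 kb from TPTE, a testis phosphatase gene, reached 28.4 and 22.3, 22.9 and 22.02, and 24.2 and 25.8 for ENO1, H4K12la and HDAC1. Chromosome 17 also held chr17:25389764-25390281 and chr17:23015953-23016792, so 5 of the 10 came from its longest gene-free stretch. The others were chr22:18730144-18730790, chr10:40980830-40981551 and chr22:50807705-50808471, the last of them 24.1 kb from RABL2B, a small GTPase gene near the chromosome end. Of these 10, only the RABL2B region lay within 50 kb of a protein-coding gene.

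**Figure D4:**
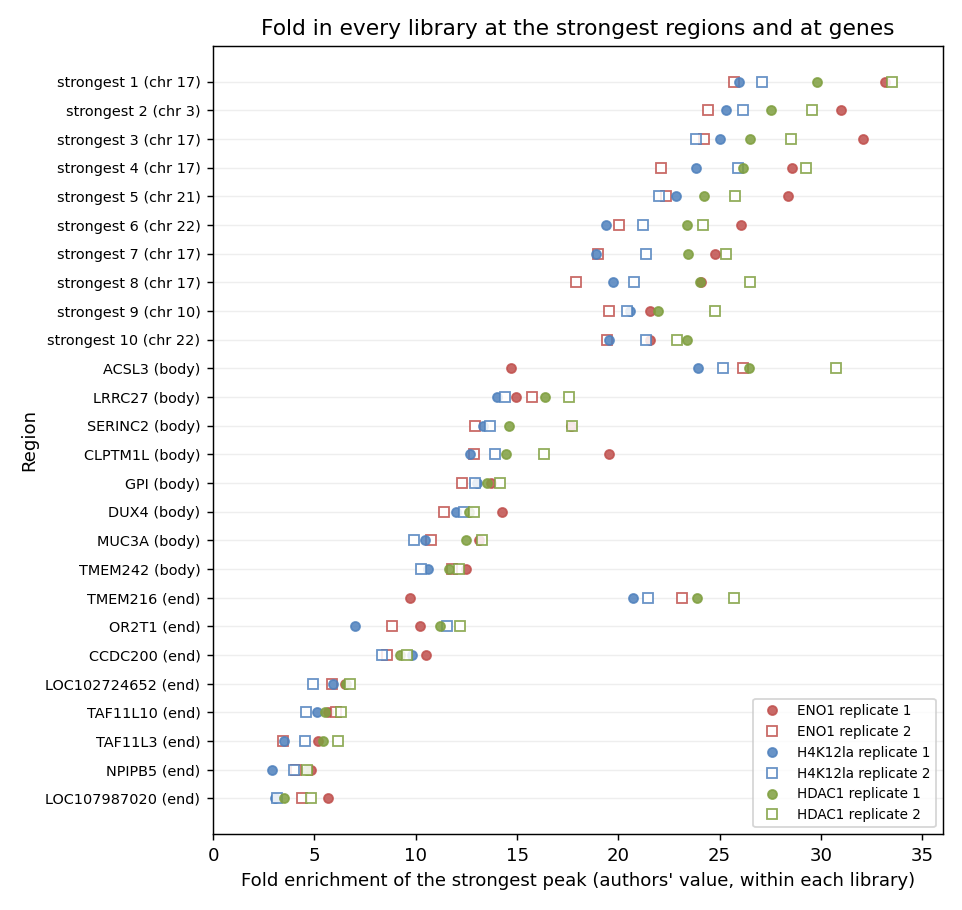
Fold enrichment over the peak caller's background (linear axis from 0) in each of the 6 libraries, as points, for named regions in rows. The top regions sit above 20 in most lists, while TMEM216 and ACSL3 sit at 9.72 and 14.7 in ENO1 replicate 1 and above 20 in the other 5.

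Regions over 50 kb from genes had a median mean rank of 204, those in the longest stretches one of 176, those in gene bodies 263 and the other 63 regions 230. Median folds followed: in the longest stretches they were 9.05 and 8.15 in ENO1, 7.89 and 8.22 in H4K12la, and 8.69 and 9.10 in HDAC1. In gene bodies they were 7.24 and 5.95, 5.60 and 5.62, and 6.81 and 6.69. These values describe the members and carry no test.

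The 8 regions at ends of protein-coding genes had mean ranks from 31.3 to 376. The strongest, chr11:61391246-61391991, lay 596 bp from TMEM216, a gene of the ciliary transition zone. It reached 23.1 for ENO1 replicate 2, 20.7 and 21.5 for H4K12la and 23.9 and 25.7 for HDAC1, with ranks of 5 to 8, but only 9.72 (rank 153) for ENO1 replicate 1. At OR2T1, an olfactory receptor gene (chr1:248408089-248408950), the folds were 10.2 and 8.85 in ENO1, 7.02 and 11.5 in H4K12la, and 11.2 and 12.2 in HDAC1. At CCDC200 (chr17:43231750-43232747) they were 10.5 and 8.57, 9.80 and 8.35, and 9.25 and 9.56. The other 5 belonged to LOC102724652, TAF11L10, TAF11L3, NPIPB5 of the nuclear pore interacting protein family, and LOC107987020, and had mean ranks of 283 to 376. At TAF11L10 (chr5:17598707-17599309) the folds were 5.67 and 6.07 in ENO1, 5.12 and 4.56 in H4K12la, and 5.53 and 6.30 in HDAC1. At TAF11L3 (chr5:17517617-17518450), whose promoter is printed above, they were 5.20 and 3.43, 3.48 and 4.53, and 5.43 and 6.17.

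The 53 regions in gene bodies lay in 44 genes. ACSL3, which encodes a long-chain acyl-CoA synthetase, held the strongest (chr2:222866190-222866896), with 26.2 for ENO1 replicate 2, 23.9 and 25.2 for H4K12la and 26.4 and 30.7 for HDAC1. It ranked 1 to 4 in those 5 lists, but 68 in ENO1 replicate 1, at 14.7. The same library thus stood apart at ACSL3 and TMEM216, and the reason was not tested. LRRC27 (chr10:132364334-132364911) reached 14.97 and 15.7 in ENO1, 14.03 and 14.4 in H4K12la, and 16.4 and 17.6 in HDAC1. SERINC2 and CLPTM1L, both genes of membrane proteins, had mean ranks of 54.7 and 57.5. GPI, which encodes glucose-6-phosphate isomerase of glycolysis (chr19:34391261-34392702), was higher in rank in both H4K12la lists than in the other 4, by 7 places, with 13.7 and 12.3 in ENO1, 13.0 and 12.9 in H4K12la, and 13.5 and 14.2 in HDAC1. TMEM242, MUC3A (a mucin), PTPRN2, TTLL8, RPTOR (the mTORC1 subunit raptor), DOCK1, MICAL3 and UCN3 followed with mean ranks of 99.2 to 184. A region at chr2:109199340-109199865 overlapped both RANBP2 and SH3RF3 in the table and had folds of 12.3 and 11.3 in ENO1, 7.41 and 5.27 in H4K12la, and 10.8 and 8.87 in HDAC1, its H4K12la replicate 2 rank of 302 being the lowest.

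At DUX4 and TTC34 fold and significance gave different orders. DUX4, a transcription factor gene of the early embryo, lies in a tandem repeat near the end of chromosome 4, with copies near the end of chromosome 10. The region on it (chr4:190177420-190180011, 2592 bp) had folds of 14.3 and 11.4 in ENO1, 12 and 12.4 in H4K12la, and 12.6 and 12.9 in HDAC1, a mean rank of 83.3. Its −log10 q was 952 and 901, 666 and 654, and 1126 and 1037, and by that measure its mean rank was 5. TTC34, a tetratricopeptide repeat gene on chromosome 1, held 9 regions within 108 kb (chr1:2652185-2760033). Their mean ranks by fold were 297 to 422, with median folds of 4.97 and 3.81 in ENO1, 4.04 and 4.32 in H4K12la, and 4.08 and 4.51 in HDAC1. By −log10 q their mean ranks were 54.8 to 291, with a median of 107. These regions were wide, with a median of 1088 bp against 841 bp over the 428.

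**Figure D5:**
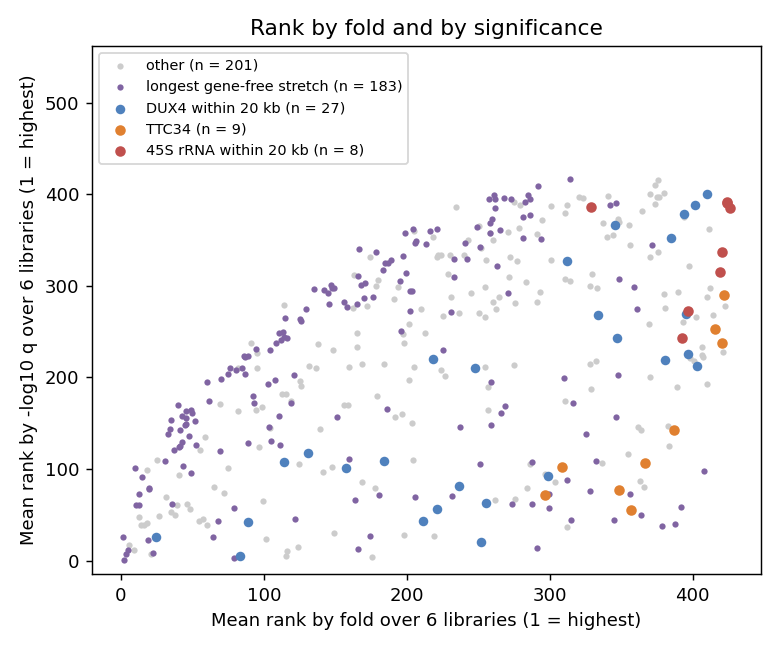
Mean rank by fold (horizontal axis) against mean rank by −log10 q (vertical axis) over the 6 libraries for the 428 regions, as points, with 1 as the highest; colours mark TTC34, DUX4 genes and 45S rRNA genes (the last 2 within 20 kb), the longest gene-free stretches and other places. The 9 TTC34 regions sit at fold ranks of 297 to 422 and at −log10 q ranks of 54.8 to 291.

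Across the 428 regions, Spearman's rho between fold and −log10 q was 0.458 and 0.371 in the ENO1 lists, 0.588 and 0.595 in the H4K12la lists, and 0.457 and 0.484 in the HDAC1 lists. Over all peaks of the same lists it was 0.618 and 0.543, 0.652 and 0.664, and 0.706 and 0.697. These are correlations across sites of 1 library, which share its depth and are not independent replicates. The region order therefore depends on which of the authors' values is ranked.

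Several multicopy families recurred among the 428. Of 28 merged regions within 1 kb of a DUX4 gene or DUX4-like pseudogene, 18 held a peak in all 6 libraries (64.3%, beside 3.14% of all merged regions), at 17 of 52 such genes on chromosomes 3, 4, 9, 10, 22 and Y. Median folds of the 18 were 7.37 and 6.06 in ENO1, 6.03 and 6.52 in H4K12la, and 6.51 and 6.83 in HDAC1. The strongest was DUX4L26 on chromosome 3 (chr3:75668862-75669656) with 19.9 and 16.9, 18.4 and 17.5, and 18.3 and 20.3. Within chr10:133667258-133787435, 10 regions between them overlapped 7 DUX4-like copies, 40.5 kb from FRG2B, with a median mean rank of 282. The FAM230 family, counted after its regions had been seen, had 6 of 13 (46.2%). At FAM230C (chr13:18211705-18212553) the folds were 20.02 and 18.97 in ENO1, 18.5 and 18.5 in H4K12la, and 19.0 and 20.7 in HDAC1. Reads of such copies can be exchanged between them, so the counts by copy are uncertain.

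Other families had fewer regions within 1 kb. TAF11L had 2 of 6 merged regions, NPIP 1 of 6, NBPF 1 of 10 and FRG1 1 of 10, the last at FRG1-DT. Among families counted after their regions had been seen, CDC27 pseudogenes on chromosome 21 had 2 of 5 (40%), with 9 members within 20 kb, olfactory receptors 1 of 7 and REXO1L 1 of 13. Ribosomal RNA genes, which encode the 45S precursor in tandem arrays on the short arms of acrocentric chromosomes, had 1 of 4 within 1 kb and 8 members within 20 kb, all on chromosome 21 between 8219527 and 8429426. Their folds were 2.06 to 5.97 over the 6 libraries. Mean ranks had a median of 420 of 428, and ran from 329 to 426. Some of these 8 members lay in a cluster at chr21:8406898-8471491 that overlaps the pseudogene CDC27P10. The CDC27 and ribosomal RNA counts therefore share regions and do not describe separate loci. Pseudogenes that resemble mitochondrial genes, also counted after their regions had been seen, had 3 of 38 (7.89%), on chromosomes 1, 17 and X. No member lay within 1 kb of a USP17L (0 of 5 merged regions), FAM86 (0 of 13), POTE (0 of 4), ANKRD20A (0 of 1), ANKRD30 (0 of 1) or TBC1D3 gene (0 of 9). The same held for GOLGA (0 of 13), RNU1 (0 of 13), RNU2 (0 of 3), RNA5S (0 of 19), tRNA (0 of 69) and histone genes (0 of 24). FRG2 genes had no merged region within 1 kb. Members were 3.14% of all merged regions, so these counts of 0 are uninformative about the families.

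To ask whether the targets ordered the shared regions differently, ranks were compared region by region, with no test. A target was taken to lead a region when both of its libraries ranked it above all 4 others. ENO1 led 35 regions (8.18%), H4K12la 45 (10.5%) and HDAC1 21 (4.91%), and no target led the other 327 (76.4%). With interchangeable libraries each target would lead 1 of 15 regions. HDAC1 lay below that share, and ENO1 and H4K12la lay above it. The counts alone thus do not show an order particular to a target. Ranked by −log10 q, the counts were 71, 77 and 13. Without 1 library, when a single list stands for its target, they ran from 42 to 128 for ENO1, 58 to 127 for H4K12la and 38 to 59 for HDAC1. Far regions made up 71.4% of those led by ENO1, 77.8% of those led by H4K12la, 66.7% of those led by HDAC1 and 72.8% of the rest. By best mean rank, H4K12la came top in 176 regions, ENO1 in 145 and HDAC1 in 107.

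Regions led by ENO1 had a median mean rank of 165, those led by H4K12la 226, those led by HDAC1 202 and the rest 221. They included chr22:18730144-18730790, among the 10 best by mean rank, but the 5 with the widest margins had mean ranks of 163 to 301. The widest margin was at chr1:121751841-121752534, where the ranks were 201 and 179 in ENO1, 306 and 337 in H4K12la, and 351 and 321 in HDAC1, and the folds 8.24 and 7.96, 5.19 and 4.77, and 4.82 and 5.66. Next were chr9:67723229-67724528, at 8.14 and 8.15 in ENO1, 3.52 and 4.07 in H4K12la, and 5.86 and 5.70 in HDAC1, and chr7:65489410-65490617, 88.3 kb from the zinc finger gene ZNF92. The last 2 of the leading 5 were chr6:1533793-1534827, 75.1 kb from the forkhead factor gene FOXC1, and chr5:48364015-48364524. Among gene bodies ENO1 also led the DOCK1, RANBP2 and TMEM242 regions.

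H4K12la led by most at chr22:12175653-12177014, with ranks of 159 and 157 against 233 to 325 in the other 4, and folds of 5.84 and 6.66 in ENO1, 8.28 and 8.34 in H4K12la, and 5.78 and 5.63 in HDAC1. The next 4 were chrY:56714992-56715955 and chrY:56689601-56690317 of the large Y cluster, chr4:49291704-49292370, and chr1:2748287-2749472 in TTC34. HDAC1 led by most at chr8:44055866-44056494, 691 kb from POTEA, with ranks of 115 and 114 against 196 to 232, and folds of 11.4 and 11.8, beside 8.44 and 7.13 for ENO1 and 7.17 and 6.43 for H4K12la. It was followed by chr7:150909764-150910640, 34.3 kb from KCNH2, a cardiac potassium channel gene, chr11:51594387-51594819, the TAF11L3 region, and chr3:198173034-198174565 over FAM157A. Each target thus led regions in gene-free stretches as well as regions near genes.

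Over the 428 regions the libraries ranked fold almost alike, whatever the target. Spearman's rho between lists was 0.923 for the ENO1 pair, 0.936 for the H4K12la pair and 0.955 for the HDAC1 pair, and 0.905 to 0.934 for the 12 pairs of different targets. Both ENO1 lists had a higher rho with each HDAC1 list (0.930 to 0.933) than with each other. On average the same-target pairs exceeded the others by 0.0142, and no other of the 15 ways to pair the libraries gave as large an excess (exact permutation test, one-sided p = 0.0667, the smallest these 15 can give, and 0.0667 after Benjamini-Hochberg adjustment over 2 tests). The design thus cannot reach 0.05, and the p-value only ranks the pairing by target among the 15 pairings of these libraries. It does not measure a spread between cultures. Without an HDAC1 replicate the excess was 0.00933 (replicate 1) or 0.0107 (replicate 2), with an exact permutation p of 0.2 in both cases.

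Summit positions were compared over the same pairs of libraries. The median distance between the summits of a region's strongest peaks averaged 20.5 bp over the same-target pairs (16.5 to 24) and 23.1 bp over the different-target pairs (18 to 27). The difference was 2.58 bp (exact permutation test, one-sided p = 0.0667, adjusted 0.0667). It fell to 0.250 bp without HDAC1 replicate 1, where the exact permutation p was 0.533. It was 1.31 bp without HDAC1 replicate 2, and 1.06 and 0.813 bp without ENO1 replicate 1 and 2, at exact permutation p-values of 0.267, 0.333 and 0.4.

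Single libraries stood apart by at least 50 places from the other 5 in a minority of regions, counted after the values had been seen. ENO1 replicate 1 was lower in 14 and higher in 6, ENO1 replicate 2 in 7 and 5, H4K12la replicate 1 in 11 and 3, H4K12la replicate 2 in 8 and 9, HDAC1 replicate 1 in 3 and 5, and HDAC1 replicate 2 in 2 and 2. The widest gap downwards was the 145 places at TMEM216. The widest upwards was in ENO1 replicate 2 at chr16:34725549-34726126, where its fold of 10.3 ranked 104 and ENO1 replicate 1, at 6.31, ranked 304. A region on X that held mitochondrial-like pseudogenes (chrX:126471704-126473441) also ranked 76 in ENO1 replicate 2 and 274 in ENO1 replicate 1.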

How the data were processed

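CUT&Tag libraries of ENO1, H4K12la and HDAC1 in HepG2 cells were grouped and numbered by their titles. The submitters' processing notes name hg38 as build and FastQC, Bowtie2, deepTools and MACS2 as tools. Their versions, their settings and any control used in calling are, like read depth, not stated in the material used. The authors deposited 1 peak list per library, with fold enrichment as a ratio over the caller's background, the −log10 of the p-value and q-value, a score derived from q, and summit offsets. The deposited score and −log10 p were not ranked.

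Peaks were merged (Python 3.11.15, pandas 2.3.3) and each region took the highest-fold peak of a library. Genes and promoter windows came from RefSeq tables of GRCh38 patch 14, which give gene spans without strand; 718 entries on other sequences were left out, leaving 19866 protein-coding genes. Distances are to these genes, gene ends are both ends of a span, and identity between promoters was computed with edlib 1.3.9.post1. Likeness of libraries was tested by exact permutation over 15 pairings (scipy 1.17.1) after tests on simulated data. Replicate numbers did not pair the libraries. Named were the 10 best mean ranks, 5 regions per target by lead, all at gene ends, 15 in gene bodies, the 6 largest clusters, 3 each just inside and outside the rule, and the 3 widest and narrowest. The regions, lists and rules were chosen with earlier results of these data known. Alternatives concern list length, q, overlap, distances, cluster gap, ranking by q and left-out libraries.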

Additional observations from a re-analysis of the deposited data

Results flagged for a closer look

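Peaks also lay on sequences outside the 24 chromosomes (unplaced contigs and the mitochondrial genome), which the merged regions do not use. There were 226 and 206 of them in the ENO1 lists, 193 and 205 in the H4K12la lists, and 252 and 235 in the HDAC1 lists, or 12.4% and 14.8%, 3.41% and 2.64%, and 4.21% and 4.89% of each list. Of these, 5 to 7 per library lay on the mitochondrial genome. No control library was analysed here, so they were set only against a count of 0.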

How the results depend on the processing

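Of 136 values recomputed under other settings, 105 were labelled as the same, 31 as moved and 0 as reversed. Only counts and shares of regions were held to a set spread. The excess in rho and the summit difference were labelled by their permutation p, which cannot become significant with so few pairings. They could thus not be labelled as moved, and their part of the 105 says nothing of stability. The summit difference was 2.58 bp in the main run and 0.25 bp without HDAC1 replicate 1. With a −log10 q of at least 5, an overlap of 100 bp, or only bases covered in all libraries, no count or share moved. With the 1189 strongest peaks per list, 268 regions remained: 53.7% in the longest gene-free stretches, 8.96% in gene bodies, 38.4% in clusters, and 21 led by ENO1 and 27 by H4K12la. Far regions were 77.8% with 25 kb, 64.3% with 100 kb and 51.4% with genes of every kind, which also raised overlap to 22.7%. Gene-end regions were 0.935% with 500 bp. Clusters took 40.7% with gaps of 50 kb and 73.1% with 1 Mb. By −log10 q, 71, 77 and 13 regions were led by ENO1, H4K12la and HDAC1. With 1 region per cluster, added after seeing the data, far, longest-stretch and gene-body shares were 59.1%, 33.6% and 19.5%.

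Without 1 library at a time, 432 to 500 regions were found, 68.9% to 75.2% far, 1.61% to 2.47% at gene ends, 41.8% to 48.4% in the longest stretches, 11.5% to 15.6% in gene bodies and 45.1% to 51.0% in clusters. Regions led ran from 42 to 128 for ENO1, 58 to 127 for H4K12la and 38 to 59 for HDAC1, since 1 list then stands for its target. The excess in rho ran from 0.00927 to 0.0282 and the summit difference from 0.250 to 3.50 bp. With the replicate block, 6 pairings were left, both values stayed at 0.0142 and 2.58 bp, and the exact permutation p was 0.167, the smallest possible. Across the 428 regions, the log fold difference between replicates 1 and 2 was almost uncorrelated from target to target (r of −0.0249, 0.0315 and 0.0516). A shift common to all regions of same-numbered libraries would not show in these values.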
